A study of Rattus norvegicus with 9 samples.

Results

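The multidrug efflux pumps examined here are 8 rat genes chosen by name, Abcb1a, Abcb1b, Abcc1, Abcc3, Abcc4, Abcc5, Abcc6 and Abcg2. They were chosen with earlier results of these data known, so counts and medians of the set beside all genes are descriptions. A row with the gene's symbol was found for 7 of the 8 among 32883 genes in the table, and Abcb1a was not analysed here. All 7 passed the filter on low counts in each comparison. The livers of 9 Sprague-Dawley males were profiled by mRNA sequencing, 1 library per rat and 3 rats per group. The normal control rats (N1, N3 and N12) had a normal diet and no carcinogen. The DEN model rats (M13, M17 and M24) received 0.01% diethylnitrosamine (DEN), a chemical liver carcinogen, by weekly intraperitoneal injection, planned for 16 weeks. The PZH administration rats (G27, G28 and G42) received the same DEN injections together with Pien-Tze-Huang (PZH), a traditional Chinese medicine. Neither the PZH dose level nor the collection week is given for single rats in the sources used here, so rats within a group may differ in both. Group membership was read from the letter that opens each rat name, because M and G rats carry the same PZH treatment tag.

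These pumps are ATP-binding cassette (ABC) transporters, membrane proteins that spend ATP to carry drugs, conjugates and signalling molecules out of the cell. In hepatocytes, P-glycoprotein (Abcb1) and the breast cancer resistance protein (Abcg2) sit in the canalicular membrane and export into bile, as do Abcc2 and the bile salt export pump Abcb11. Abcc3 (MRP3), Abcc4 (MRP4) and Abcc6 (MRP6) sit in the basolateral membrane that faces the blood, and Abcc1 (MRP1) and Abcc5 (MRP5) export from many cell types but are little expressed in healthy hepatocytes.

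Total counts were 16115709 to 16412520 in the normal control rats, 15259441 to 16641954 in the DEN model rats and 14922973 to 27161496 in the PZH rats. Levels are given as CPM, counts scaled to library size, after adjustment with TMM factors, which correct for unequal RNA composition. These factors ran from 0.731 to 0.799 in normal control, from 1.21 to 1.58 in DEN model and from 0.863 to 0.941 in PZH rats, so directions are relative to this scaling. A gene was called changed where edgeR's quasi-likelihood test gave a Benjamini-Hochberg adjusted p below 0.05. Hepatocyte markers were high in all 9 rats, with 8 genes summing to 159784 to 172904 CPM in normal control, 33070 to 78054 CPM in DEN model and 129149 to 173656 CPM in PZH rats. In bulk liver, fewer cells of a type and less RNA per cell cannot be told apart. With 3 rats against 3, an exact two-sided permutation test cannot go below p = 0.1, so the tests of single pumps rest on the edgeR fit across all genes.

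The upstream sequences of 4 pumps are shown because their genes differ in the comparisons that follow, Abcc1 and Abcc4 upward and Abcc6 downward with DEN, while Abcg2 was not called. Each holds the 250 bases before the RefSeq gene start, 5′ to 3′ on the gene's strand, in build GRCr8. They lie at chr10:1162368-1162617 (minus strand, Abcc1), chr15:102181365-102181614 (minus strand, Abcc4), chr1:105637896-105638145 (minus strand, Abcc6) and chr4:89075224-89075473 (plus strand, Abcg2). Capitals mark matches, on either strand, to the GC box GGGCGG, the Ahr response element core GCGTG and the CCAAT box.
Abcc1: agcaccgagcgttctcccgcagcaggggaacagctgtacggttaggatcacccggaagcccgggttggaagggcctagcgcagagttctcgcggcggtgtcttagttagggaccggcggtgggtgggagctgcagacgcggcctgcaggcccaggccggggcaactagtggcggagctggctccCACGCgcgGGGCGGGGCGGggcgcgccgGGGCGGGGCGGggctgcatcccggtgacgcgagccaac
Abcc4: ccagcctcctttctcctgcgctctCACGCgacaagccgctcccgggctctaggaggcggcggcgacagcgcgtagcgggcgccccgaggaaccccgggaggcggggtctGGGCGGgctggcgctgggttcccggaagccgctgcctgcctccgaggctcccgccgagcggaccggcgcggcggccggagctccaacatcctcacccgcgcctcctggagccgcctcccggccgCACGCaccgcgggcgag
Abcc6: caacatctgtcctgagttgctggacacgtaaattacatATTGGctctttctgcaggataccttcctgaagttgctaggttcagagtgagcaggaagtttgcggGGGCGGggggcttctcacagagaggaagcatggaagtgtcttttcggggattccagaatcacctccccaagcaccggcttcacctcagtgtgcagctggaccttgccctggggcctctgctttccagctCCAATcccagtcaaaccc
Abcg2: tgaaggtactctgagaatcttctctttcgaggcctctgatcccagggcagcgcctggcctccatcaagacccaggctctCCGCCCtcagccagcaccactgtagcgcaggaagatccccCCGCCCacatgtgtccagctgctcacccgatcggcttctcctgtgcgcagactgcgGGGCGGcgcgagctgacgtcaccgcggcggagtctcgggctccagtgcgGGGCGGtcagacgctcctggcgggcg

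The promoter set used here held such a sequence for 6 of the 8 genes, namely these 4, Abcb1a and Abcb1b. The window of Abcc1 held 4 overlapping or adjacent GC boxes and 1 GCGTG, and that of Abcc4 held 1 GC box and 2 GCGTG. The window of Abcc6 held 1 GC box and 2 CCAAT matches. The Abcg2 window held 4 GC boxes. GC content was 72.8% for Abcc1, 77.6% for Abcc4, 67.2% for Abcg2 and 54.4% for Abcc6, against a median of 51.2% over 33469 promoters of this length. Among those promoters 30.5% held GGGCGG, 25.9% held GCGTG and 34.0% held CCAAT. The antioxidant response element core TGACNNNGC, present in 10.1% of the promoters, and the nuclear receptor motif AGGTCA, present in 14.1%, had no match in any of the 6 windows. A match is a description of letters in this window, not a binding site.

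The question of the first comparison was which genes differ between DEN-exposed and untreated liver. Among the 7 pumps, 5 were called, 4 higher and 1 lower in the DEN model, beside 45.8% of the 14255 genes tested (25.3% higher, 20.5% lower). Abcc3, Abcc1, Abcc4 and Abcc5 rose, Abcc6 fell, and Abcb1b and Abcg2 did not pass the test. The 7 pumps had a median log2 fold change of 1.80, against 0.029 over all genes tested. The groups did not overlap for 5 pumps, beside 58.8% of genes. At the stricter thresholds of the study (absolute log2 fold change above 2 and unadjusted p under 0.001), 4 pumps passed, beside 12.3% of genes. With library totals in place of TMM factors, which moved the median of all genes by 0.86 on the log2 scale, the log2 fold changes were 5.79 for Abcc3, 3.63 for Abcc1, 3.59 for Abcc4, 2.69 for Abcc5 and -2.08 for Abcc6, each in the same direction and called.

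Abcc3, which carries glucuronide conjugates and bile salts back to the blood, stood at 2.65, 3.89 and 3.02 CPM in rats N1, N12 and N3. It stood at 105, 105 and 81.0 CPM in rats M13, M17 and M24. Every DEN model rat was thus far above every normal control rat, and within either group the highest rat was at most 1.47 times the lowest. The rise was 30.7-fold, a log2 fold change of 4.94 ± 0.23 (SE, adjusted p = 1.7e-05 by edgeR), with 97.2% of all tested genes at a lower log2 fold change.

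Abcc1, a pump of glutathione conjugates and leukotriene C4, was at 2.73, 3.59 and 2.52 CPM in N1, N12 and N3 and at 21.5, 17.04 and 20.8 CPM in M13, M17 and M24. The groups were separate, and the rise was 6.76-fold (log2 fold change 2.76 ± 0.24 SE, adjusted p = 0.00014 by edgeR). Abcc4, which exports cyclic nucleotides and conjugated bile acids, was at 7.11, 5.19 and 8.31 CPM in N1, N12 and N3 and at 53.5, 23.7 and 52.2 CPM in M13, M17 and M24. Rat M17 was the low one, but still above all normal control rats. Abcc4 rose 6.35-fold (log2 fold change 2.67 ± 0.34 SE, adjusted p = 0.00064 by edgeR).

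Abcc5, an exporter of cyclic nucleotides and nucleotide analogues, had 5.54, 9.16 and 7.22 CPM in N1, N12 and N3 and 23.0, 19.9 and 32.8 CPM in M13, M17 and M24. It was the smallest of the 4 rises, 3.48-fold (log2 fold change 1.80 ± 0.28 SE, adjusted p = 0.0014 by edgeR), and the groups did not overlap. It was called here but not at the study's stricter thresholds.

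Abcc6, a hepatocyte pump needed for ATP release from the liver and mutated in pseudoxanthoma elasticum, went the other way. It was at 279, 311 and 213 CPM in N1, N12 and N3 and at 26.6, 64.3 and 19.1 CPM in M13, M17 and M24. All DEN model rats were below all normal control rats, with M17 the highest of them. The fall was 7.21-fold, a log2 fold change of -2.85 ± 0.44 (SE, adjusted p = 0.0015 by edgeR), and 1.91% of genes had a lower log2 fold change.

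The Abcb1b row, a P-glycoprotein gene, was at 452, 303 and 348 CPM in N1, N12 and N3 and at 335, 406 and 274 CPM in M13, M17 and M24. The groups overlapped, and the log2 fold change of -0.10 had a 95% interval from -0.67 to 0.47 (adjusted p = 0.77 by edgeR). With library totals in place of TMM factors the value turned to 0.74 and was called (adjusted p = 0.020 by edgeR), and limma on log2(FPKM + 1) gave 0.72 (adjusted p = 0.015).

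The Abcb1b row covers more than a single gene's usual span. In the coordinates of the authors' file it runs from 22133521 to 22425515 on chromosome 4, 292 kb between Crot and Rundc3b, and the length behind its FPKM was 14.9 kb, against 3.01 to 7.15 kb for the other 6 pumps and a median of 2.52 kb over protein-coding genes. RefSeq orders this stretch as Crot, Abcb4, Abcb1b, Abcb1a and Rundc3b. The row may therefore hold reads of Abcb4, a phospholipid pump, and of Abcb1a beside Abcb1b, and the 3 cannot be told apart.

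Abcg2, which exports sulfate conjugates, urate and many drugs, was at 9.29, 5.88 and 19.4 CPM in N1, N12 and N3 and at 12.7, 5.20 and 15.4 CPM in M13, M17 and M24. Its spread within each group was about as wide as its whole range, with N12 and M17 low. The log2 fold change was -0.03, with a 95% interval from -1.16 to 1.10 (adjusted p = 0.96 by edgeR), an interval that leaves room for a change of either sign. The value was 0.57 without N3 and 0.30 without M17.

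**Figure D1:**
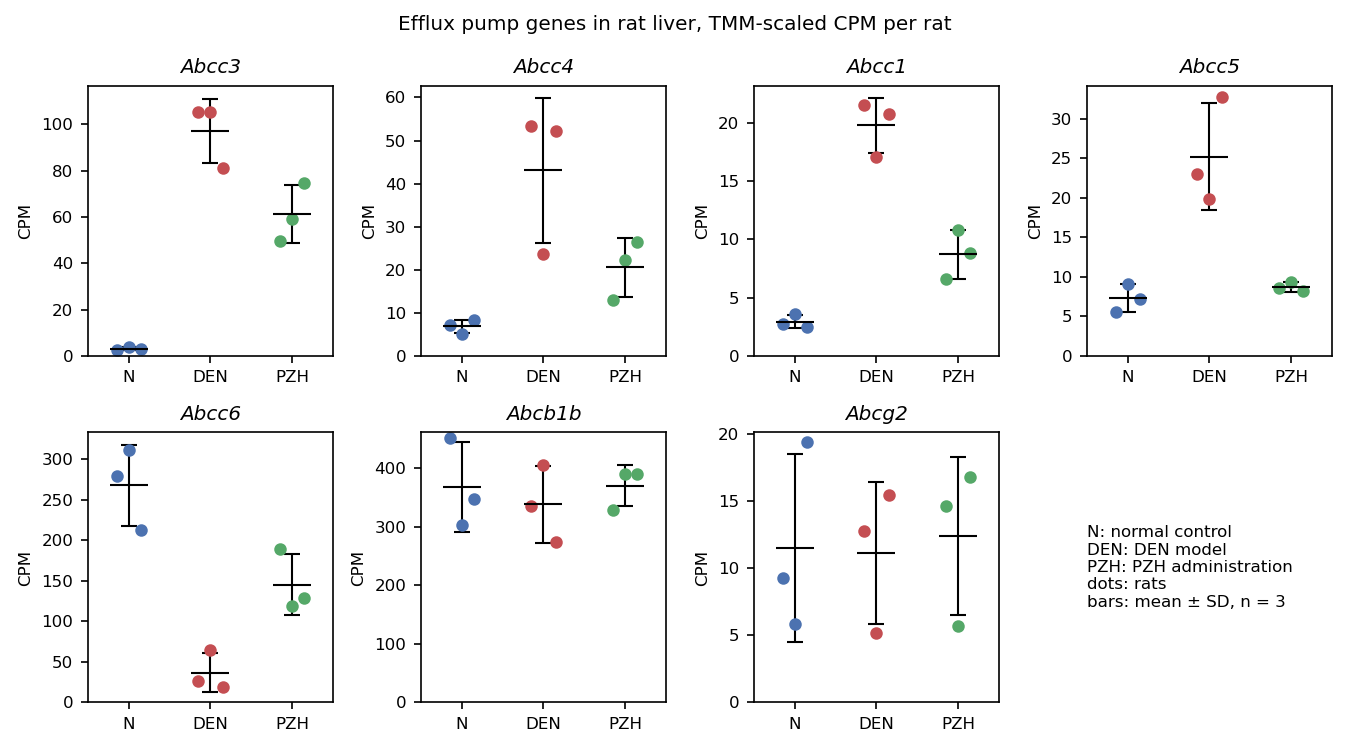
CPM (TMM-scaled, linear axis from 0) of the 7 pump genes in each of 9 rats (dots), with group mean and SD as bars (n = 3). Group means of Abcc3, Abcc4, Abcc1 and Abcc5 are highest and that of Abcc6 lowest in the DEN model (Abcc6 19.1 to 64.3 CPM), all groups overlap for Abcb1b and Abcg2, DEN model and PZH rats overlap for Abcc4, and PZH and normal control rats overlap for Abcc5.

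The second comparison asked what differed between DEN rats given PZH and DEN rats without it. Here 3 of the 7 pumps were called, 1 higher and 2 lower with PZH, beside 19.1% of the 14272 genes tested (8.72% higher, 10.3% lower). Abcc1 and Abcc5 fell and Abcc6 rose, and none of the 7 passed the study's stricter thresholds, which 2.43% of genes passed. Over the 7 pumps the median log2 fold change was -0.65, against 0.0053 over all genes tested. Groups did not overlap for 4 pumps, beside 40.8% of genes. This comparison shares the DEN model rats with the first, so values are given side by side and their opposite signs are no independent result.

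Abcc5 was at 8.53, 9.40 and 8.26 CPM in the PZH rats G27, G28 and G42, the tightest group of any pump. Each PZH rat was below the lowest DEN model rat, 19.9 CPM. The fall was 2.84-fold (log2 fold change -1.51 ± 0.23 SE, adjusted p = 0.010 by edgeR). It was called in each fit that left out 1 rat.

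Abcc1 was at 6.57, 10.8 and 8.83 CPM in G27, G28 and G42, again below all DEN model rats. The fall was 2.24-fold (log2 fold change -1.16 ± 0.23 SE, adjusted p = 0.017 by edgeR). Without M13 the adjusted p of Abcc1 was 0.075 and without M24 it was 0.059.

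Abcc6 was at 189, 119 and 129 CPM in G27, G28 and G42, above every DEN model rat. The rise was 4.04-fold (log2 fold change 2.02 ± 0.45 SE, adjusted p = 0.022 by edgeR). The call of Abcc6 rested on all rats but G28 and M17. Its adjusted p by edgeR was 0.054 without G27, 0.051 without G42, 0.090 without M13 and 0.060 without M24, with log2 fold changes from 1.71 to 2.68 over the fits that left out 1 rat. Of the 7 pumps, 3 were called with all rats and 1 without M13 or without M24.

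Abcc3 was at 49.7, 59.3 and 74.6 CPM in G27, G28 and G42. These values did not overlap the DEN model rats, yet the log2 fold change of -0.65 ± 0.21 (SE) missed the threshold (adjusted p = 0.063 by edgeR). DESeq2 put it at an adjusted p of 0.038 and edgeR with all 3 groups in 1 fit at 0.043. The log2 fold change of Abcc3 was -1.29 with library totals (adjusted p = 0.0047 by edgeR) and -1.21 with limma on log2(FPKM + 1) (adjusted p = 0.010), called in both. The other 10 of 14 alternatives did not call Abcc3. Among them was each fit that left out 1 rat, with adjusted p up to 0.21 (edgeR without M13).

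Abcc4 was at 12.9, 22.2 and 26.5 CPM in G27, G28 and G42 and overlapped the DEN model group through M17 alone. Its log2 fold change was -1.05 ± 0.36 (SE, adjusted p = 0.075 by edgeR). Without M17 it was -1.36 and called (adjusted p = 0.018 by edgeR), and DESeq2 with all rats gave an adjusted p of 0.033. Of 14 alternatives, 4 called Abcc4 and 10 did not, with adjusted p up to 0.23 (edgeR without M13). With library totals the log2 fold changes were -1.75 for Abcc4 (adjusted p = 0.012 by edgeR), -1.84 for Abcc1, -2.21 for Abcc5 and 1.42 for Abcc6, the last 3 still called.

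Abcb1b and Abcg2 again did not pass. Abcb1b was at 330, 390 and 391 CPM in the PZH rats and its log2 fold change was 0.15 (95% interval -0.37 to 0.68, adjusted p = 0.67 by edgeR). Abcg2 was at 14.6, 5.71 and 16.8 CPM with a log2 fold change of 0.18 (95% interval -0.92 to 1.28, adjusted p = 0.82 by edgeR). With library totals both values turned negative, -0.49 for Abcb1b and -0.55 for Abcg2, in a scaling that moved the median of all genes by -0.67.

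The third comparison set the PZH rats against the normal control rats. Of the 7 pumps, 3 were called, all higher, beside 5.21% of the 13348 genes tested (4.07% higher, 1.15% lower). Abcc3 stayed far above normal in every PZH rat, Abcc1 and Abcc4 were higher by smaller folds, and Abcc5 was not called. Their median log2 fold change was 0.26, against -0.02 over all genes. Abcc3 alone passed the study's thresholds, which 2.32% of genes did, and groups did not overlap for 4 pumps, beside 24.2% of genes.

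Abcc3 was 19.2-fold above normal in the PZH rats (log2 fold change 4.26 ± 0.27 SE, adjusted p = 0.00089 by edgeR), and 99.4% of tested genes had a lower log2 fold change. It was called in every alternative tried, with log2 fold changes from 2.69 to 4.50, the lowest from limma on log2(FPKM + 1), where the pseudocount shrinks folds of low genes.

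Abcc1 was 2.96-fold higher (log2 fold change 1.57 ± 0.31 SE, adjusted p = 0.022 by edgeR) and Abcc4 2.99-fold higher (log2 fold change 1.58 ± 0.33 SE, adjusted p = 0.027 by edgeR). All 3 PZH rats were above all normal control rats for both genes. Both calls were lost when G28, G42, N1 or N12 was left out, and that of Abcc1 also without N3. The adjusted p by edgeR in those fits ran from 0.052 to 0.11 for Abcc1 and from 0.081 to 0.11 for Abcc4. The count of pumps called was then 1 without G28, G42, N1 or N12, 2 without N3 and 4 without G27.

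Abcc5 had a log2 fold change of 0.26 (95% interval -0.34 to 0.86, adjusted p = 0.68 by edgeR), and the groups overlapped in CPM. In FPKM, which is not TMM-scaled, the lowest PZH rat was at 1.14 and the highest normal control rat just below it, so the Abcc5 groups did not overlap there. Abcc6 remained below normal in every PZH rat, 119 to 189 against 213 to 311 CPM, but its log2 fold change of -0.87 ± 0.24 (SE) missed the threshold (adjusted p = 0.075 by edgeR). DESeq2 called it (adjusted p = 0.011), as did edgeR without G27 (log2 fold change -1.11, adjusted p = 0.016). The other 12 of 14 alternatives did not call Abcc6, with adjusted p up to 0.33 (edgeR without G28). Abcb1b and Abcg2 had log2 fold changes of 0.02 (95% interval -0.46 to 0.49) and 0.10 (95% interval -1.05 to 1.25).

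**Figure D2:**
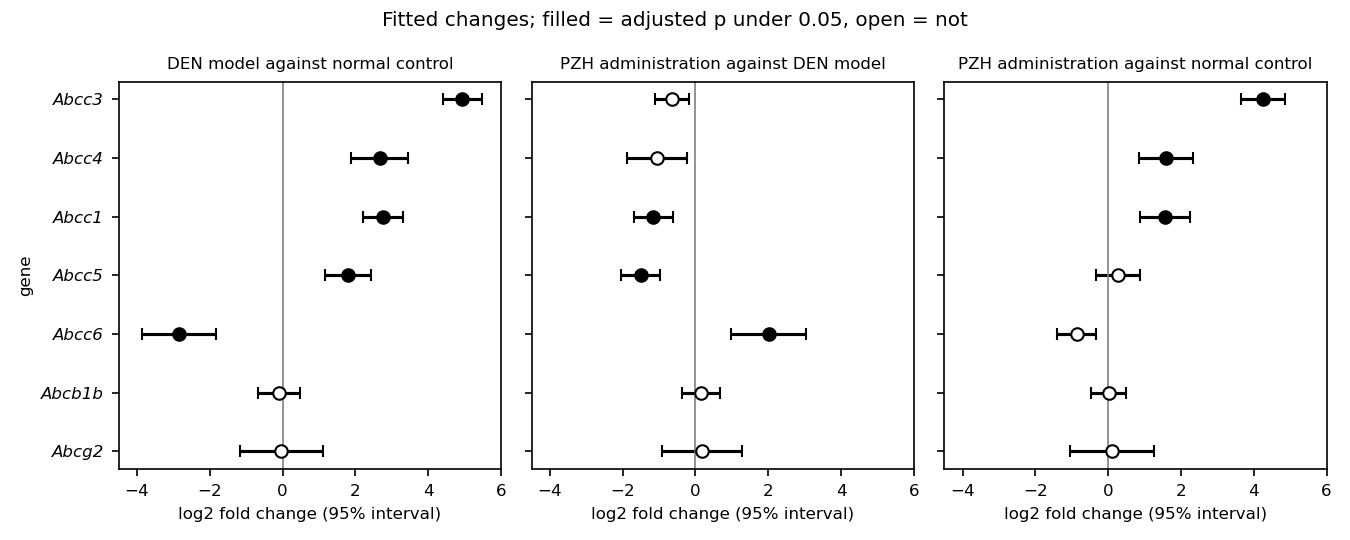
Log2 fold change (x axis) with its 95% interval from edgeR for each pump (y axis) in the 3 comparisons, 3 rats per group, filled where the adjusted p is under 0.05. Abcc3 stands at 4.94 in the first panel and at 4.26 in the third, and the intervals of Abcb1b and Abcg2 span 0 in all panels.

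**Figure D3:**
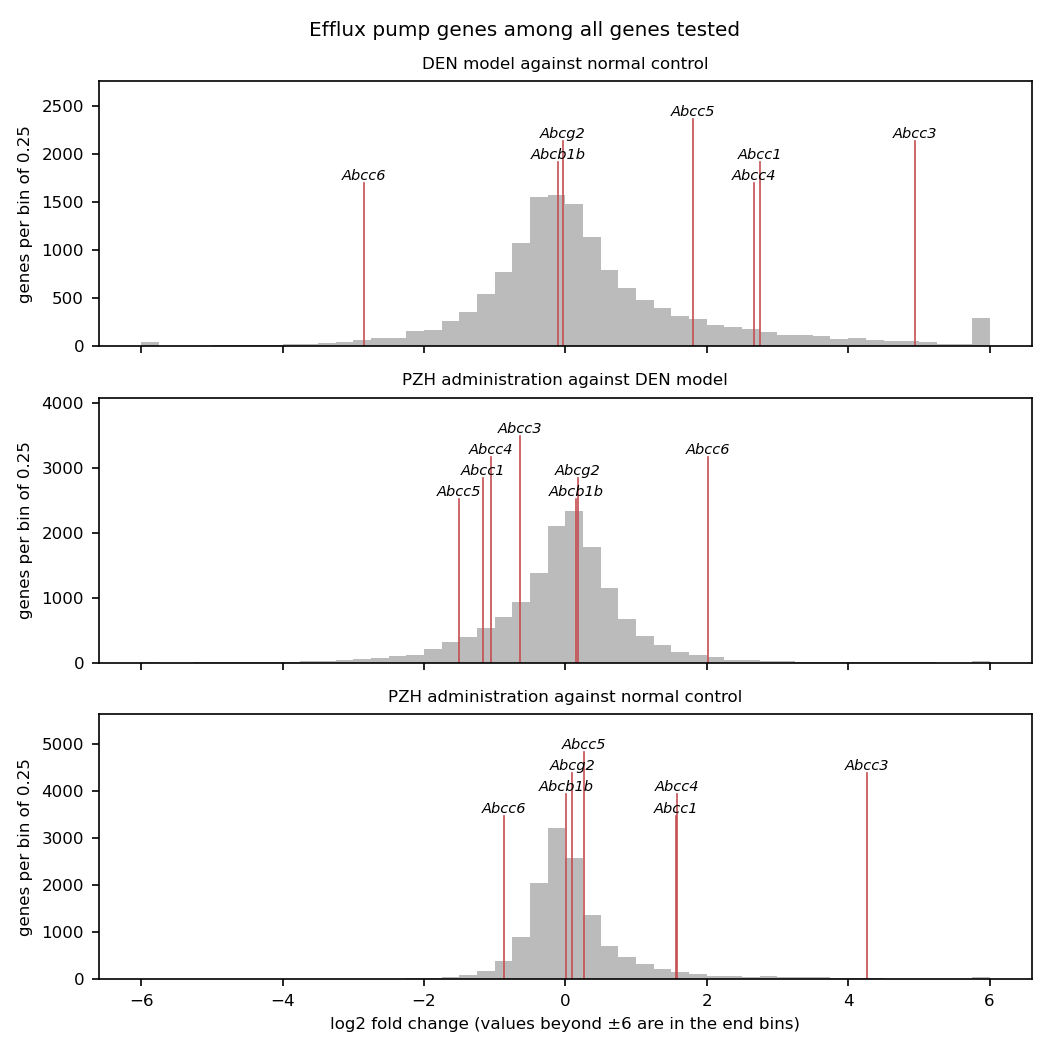
Grey bars count all tested genes by log2 fold change in bins of 0.25 for the 3 comparisons, and red lines mark the 7 pumps. Abcc6 lies in the left tail of the first panel (-2.85) and the right tail of the second (2.02), while Abcb1b and Abcg2 lie in the central peak of each.

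Levels between genes were compared on the authors' FPKM, which divides by transcript length but is not TMM-scaled. In normal liver the mean order was Abcc6 at 36.1 FPKM, Abcb1b at 19.2, Abcg2 at 2.90, Abcc4 at 1.18, Abcc5 at 0.880, Abcc1 at 0.499 and Abcc3 at 0.346. Abcc3 was thus the lowest of the 7 in normal liver, and its range over rats overlapped that of Abcc1. The ranges of Abcc4 and Abcc5 overlapped too, while the other neighbours were separate.

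In the DEN model the order was Abcb1b at 31.9 FPKM, Abcc3 at 19.2, Abcc4 at 14.2, Abcc6 at 8.52, Abcc1 at 6.20, Abcc5 at 5.69 and Abcg2 at 5.49. Abcc3 had moved to the second place, and from Abcc3 downward each neighbour overlapped the next over rats. In the PZH rats Abcc6 at 22.8 FPKM and Abcb1b at 22.7 overlapped at the top. Abcc3 at 7.84 FPKM was separate from its neighbours, and Abcc4 at 4.22, Abcg2 at 3.73, Abcc1 at 1.74 and Abcc5 at 1.24 followed, each overlapping the next. The FPKM of Abcb1b rests on the long row that may hold several genes.

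**Figure D4:**
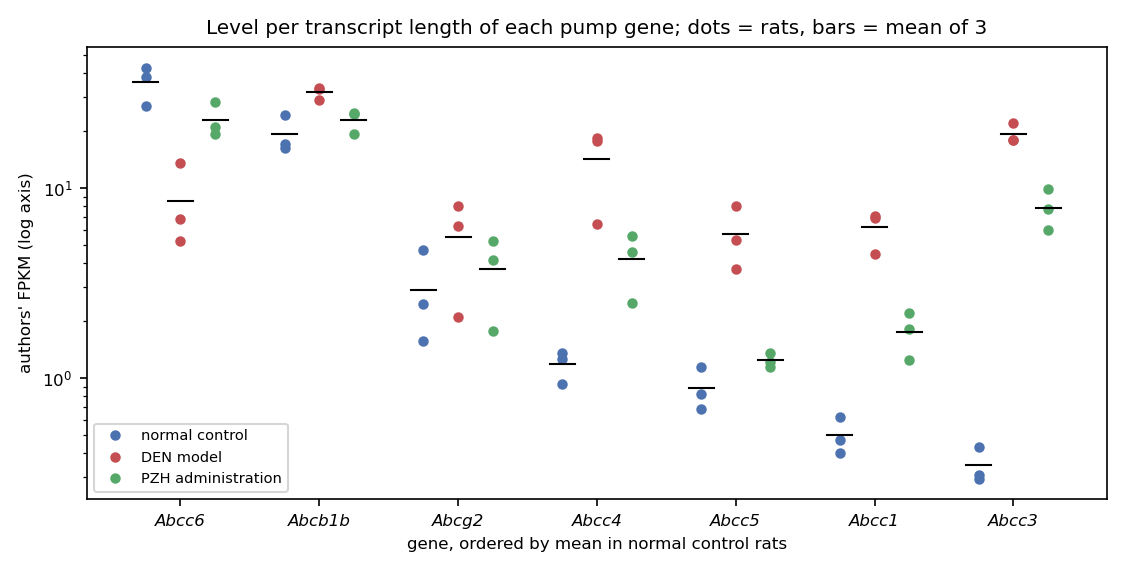
FPKM as deposited (log axis) of each pump in each rat (dots), with the mean of 3 as a bar, for normal control, DEN model and PZH rats, ordered by the mean in normal liver. Abcc3 is the lowest pump in normal liver (mean 0.346 FPKM) and second highest in the DEN model (19.2 FPKM).

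Pump counts were also set against those of Abcc2, the canalicular pump of bilirubin glucuronides, in the same rat. Abcc2 was chosen after its values were seen, as it was called in no comparison after TMM scaling (log2 fold changes -0.03, 0.42 and 0.36), whereas with library totals its log2 fold changes were 0.81, -0.22 and 0.59. For DEN model against normal control, ratios to it are therefore close to the TMM-scaled values by choice. Mean Abcc2 was 822 CPM in PZH rats, against 622 CPM in DEN model and 644 CPM in normal control rats. Ratios in PZH rats therefore stand lower relative to the other groups than the CPM values do. All ratios are given as a description. On this scale Abcc3 ran from 3.42 to 7.37 in normal control, from 149 to 168 in DEN model and from 69.9 to 77.8 in PZH rats. The 3 groups were separate, and the ratios differed 31.5-fold upward between DEN model and normal control, 2.09-fold downward between PZH and DEN model and 15.1-fold upward between PZH and normal control.

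Abcc6 ran from 338 to 589 per 1000 Abcc2 counts in normal control, from 35.9 to 91.0 in DEN model and from 132 to 295 in PZH rats, with no overlap. Abcc4 and Abcc1 also separated all 3 groups, although in CPM Abcc4 overlapped between DEN model and PZH rats. No share of all genes was computed on this ratio scale. In CPM, groups did not overlap for 58.8% of genes in DEN model against normal control. The shares were 40.8% in PZH against DEN model and 24.2% in PZH against normal control. Abcc5 in PZH rats was 0.958-fold the normal ratio. Abcb1b, whose row may hold several genes, varied least. It ran from 553 to 583 in normal control, 515 to 575 in DEN model and 400 to 516 in PZH rats. The PZH ratios did not overlap normal, but in CPM these groups overlapped, with means of 370 and 368 CPM (log2 fold change 0.02).

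**Figure D5:**
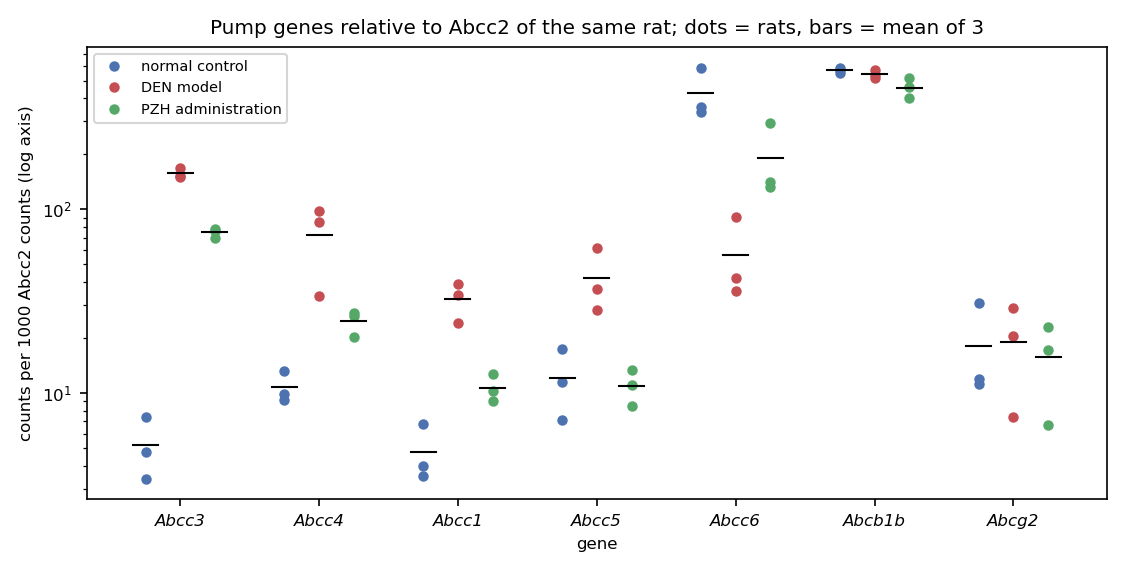
Counts of each pump per 1000 Abcc2 counts of the same rat (log axis), dots for rats and bars for the mean of 3, by group. Abcc3, Abcc4, Abcc1 and Abcc6 separate the 3 groups on this scale, and Abcb1b stays between 400 and 583 in all 9 rats. In CPM, Abcc4 overlaps between DEN model and PZH rats.

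The pumps did not all vary together over the 9 rats. Pearson r of log2(CPM + 1) was 0.94 between Abcc1 and Abcc4 and 0.93 between Abcc1 and Abcc3, while Abcc4 and Abcc6 had r = -0.94. After the group means were taken out, r between Abcc4 and Abcc6 was -0.91 and that between Abcc3 and Abcc4 was 0.06. Abcb1b and Abcc5 had r = -0.52 over all rats and -0.89 within groups. These rats share groups and scaling, so the values are descriptions only.

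Among 11627 genes, the 3 most like Abcc6 were Acox2 (r = 0.999), Rcl1 and Hpn (both r = 0.996). Abcc3 was most like Mmp12 (r = 0.989), Gstp1 (r = 0.989) and Car2 (r = 0.987). Abcc1 was most like Kifc1 (r = 0.996), Emp2 (r = 0.995) and Ms4a4e (r = 0.995). Gstp1 is a glutathione transferase that conjugates electrophiles, and Acox2 is a peroxisomal enzyme of bile acid synthesis.

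Abcc4 was most like Acot9 (r = 0.991), Casp2 (r = 0.985) and Aph1b (r = 0.984). Abcc5 was most like Actg1 (r = 0.989), Abhd12 (r = 0.986) and Laptm5 (r = 0.986). For Abcb1b the nearest were Znf750 (r = 0.9753), Naglu (r = 0.939) and Ptpn21 (r = 0.882), and for Abcg2 Bcas2 (r = 0.927), Ykt6 (r = 0.924) and Btf3 (r = 0.905). All r are over the same 9 rats and include the differences between groups. The genes were picked for the highest r on these rats, which also favours high r after group means are taken out. With group means taken out, the r of Gstp1 with Abcc3 was 0.54, of Mmp12 0.86 and of Car2 0.82, while that of Acox2 with Abcc6 was 0.996, and over the other genes named it ran from 0.859 to 0.984.

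Of 41 other ABC transporter genes, 34 were tested in DEN model against normal control, where 9 rose and 10 fell, with a median log2 fold change of -0.23, beside 25.3% of all genes higher and 20.5% lower. The canalicular bile salt export pump Abcb11 fell with DEN (log2 fold change -2.30, adjusted p = 0.0031 by edgeR) and was higher with PZH than in the DEN model (1.99, adjusted p = 0.022). No row was used for Abcb4 under its own name. The highest called were the chloride channel Cftr (log2 fold change 7.004), Abcc12 (0.821 ± 0.175 CPM, SD, n = 3, in DEN model and 0 counts in all normal control rats) and the peroxisomal Abcd2 (1.20 ± 0.42 CPM against 0.112 ± 0.194 CPM, SD, n = 3). Cftr is also counted among the cholangiocyte markers below, so the 2 lists are not separate for it. The lowest were Abcc8, a subunit of potassium channels (0.0873 ± 0.1112 against 2.32 ± 0.89 CPM, SD, n = 3), Abca6 (log2 fold change -2.32) and Abcb11.

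In PZH against DEN model 4 of 33 tested rose and 4 fell, with a median of 0.29, beside 8.72% of all genes higher and 10.3% lower. The highest were Abca6 (log2 fold change 2.04), Abcb11 and Abcd3 (0.87), and the lowest Abca4 (-1.95), Cftr (-1.39) and Abcg1 (-1.25). Against normal control, Cftr was called higher (5.58) and the other 30 tested were not called, with a median of -0.16, beside 4.07% of all genes higher and 1.15% lower. With library totals the counts were 15 higher and 4 lower for DEN against normal, 2 higher and 10 lower for PZH against DEN, and 3 higher and 0 lower for PZH against normal, and Abcb10, called lower with DEN, turned sign (-0.72 to 0.14).

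Among 23 tested regulators of pump genes, most of them transcription factors, 2 were called higher and 10 lower with DEN and 11 did not pass. Their median was -0.53, beside 25.3% of all genes higher and 20.5% lower. With library totals 7 were higher and 7 lower, so the split depended on the scaling. Vdr, the vitamin D receptor (16.7 ± 6.6 CPM against 0.0559 ± 0.0969 CPM in normal control, SD, n = 3), and Maff (log2 fold change 1.72) rose, and Esr1 (-3.28) and Nr0b2 (-2.91) were lowest. Nr1i2, the pregnane X receptor, fell (-1.67, adjusted p = 0.0040 by edgeR). Nfe2l2, which encodes Nrf2, was at 0.49 (adjusted p = 0.10 by edgeR), Nr1i3, which encodes CAR, at -0.53 (adjusted p = 0.40) and Ahr at -0.39 (adjusted p = 0.14).

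In PZH against DEN model, Ppara (1.23), Nr1h4 (1.13), Hnf4a (1.11) and Nr5a2 (1.11) rose and none of the 23 was called lower by edgeR, with a median of 0.37, beside 8.72% of all genes higher and 10.3% lower. Nfe2l2 (-0.12), Nr1i2 (0.88), Nr1i3 (1.02) and Ahr (0.16) were not called there. Against normal control, Vdr was higher (6.40 ± 3.24 CPM) and Nr0b2 (-1.66) and Nr1h4 (-0.79) were lower, with a median of -0.21, beside 4.07% of all genes higher and 1.15% lower. There Nfe2l2 (0.33), Nr1i2 (-0.82), Nr1i3 (0.47) and Ahr (-0.26) were not called. With library totals the counts for regulators were 0 higher and 5 lower with PZH against DEN, and 1 higher and 1 lower with PZH against normal.

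Of 10 tested genes induced through these regulators, 5 rose and 2 fell with DEN, with a median of 1.33. For this list and the anchors, the shares over all genes were again 25.3% higher and 20.5% lower with DEN, 8.72% and 10.3% with PZH against DEN, and 4.07% and 1.15% with PZH against normal control. With DEN, Gclm (2.42) and Gclc (1.98) of glutathione synthesis, the quinone reductase Nqo1 (3.77) and the thioredoxin reductase Txnrd1 (1.99) rose. Nrf2 is known to induce these 4. Cyp1a1 (4.11) also rose, while Cyp3a23/3a1 (-7.76) and Cyp1a2 (-3.75) fell. Hmox1 (0.67, adjusted p = 0.14 by edgeR), Cyp2b2 (-0.84) and Tiparp (-0.49) were not called with DEN. With PZH against DEN, Cyp3a23/3a1 (6.87), Cyp1a2 (3.17) and Cyp2b2 (2.12) rose and Txnrd1 (-1.14) and Nqo1 (-1.03) fell, with a median of -0.24. Gclm (-0.38, adjusted p = 0.52 by edgeR) and Gclc (-0.11, adjusted p = 0.88) were not called there. Against normal control, Cyp1a1 (3.70), Nqo1 (2.71), Gclm (2.01) and Gclc (1.84) were higher and none lower, with a median of 1.03. Txnrd1 (0.82, adjusted p = 0.10 by edgeR) was not called against normal control.

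Among 5 membrane anchor genes, whose proteins tie pumps to the actin cortex or to scaffolds, Ezr (3.58) and Msn (1.81) rose with DEN and Pdzk1 (-1.56) and Slc9a3r1 (-1.45) fell, with a median of -0.51. With PZH against DEN, Ezr (-1.78) and Msn (-1.20) fell, with a median of 0.51, and against normal control Ezr was higher (1.77), with a median of -0.04. None of these called targets or anchors turned sign with library totals.

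Markers of several cell types also differed between groups, not all in the same direction, and their part in the pump results was not tested. For the marker counts that follow, the shares called over all genes tested were 25.3% higher and 20.5% lower with DEN. These shares were 8.72% and 10.3% with PZH against DEN, and 4.07% and 1.15% with PZH against normal control. Counts on short lists near these shares are not read as changes of a cell type. All 7 cholangiocyte markers rose with DEN, all 7 fell with PZH against DEN and 6 were higher in PZH than in normal rats. Their sum was 30.6 to 43.1 CPM in normal control, 270 (M17) to 789 (M24) CPM in DEN model and 99.9 to 132 CPM in PZH rats. In the normal control rats 1 to 3 of these 7 markers were at or below 3 counts, and none were in the other rats. Stellate cell or myofibroblast markers rose for 5 of 6 with DEN and 3 of 6 fell with PZH against DEN, their sum running from 67.5 to 110 CPM in normal control, 482 (M17) to 1830 (M24) CPM in DEN model and 251 to 335 CPM in PZH rats.

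Hepatocyte markers fell for 4 of 8 with DEN, and 2 of 8 rose with PZH against DEN. M17 had the highest hepatocyte sum and the lowest cholangiocyte and stellate sums of the DEN model rats, together with the highest Abcc6 and the lowest Abcc4, Abcc1 and Abcc5. Abcc3 in M17, 105 CPM, was level with M13. Of 4 tested lymphocyte markers 3 rose with DEN, of 6 endothelial markers 2 rose and 2 fell (Lyve1 turned sign with library totals), and of 6 macrophage markers 2 fell (3 rose and 1 fell with library totals). Gut epithelium markers rose for 1 of 3 tested and red cell precursor markers for 2 of 3. Neither list's sum separated DEN model from normal control rats. The gut sum, which includes genes not tested, was 192 to 214 CPM in normal control rats. In DEN model rats it was 72.5 (M13), 20.8 (M17) and 559 (M24) CPM. The red cell precursor sum was 3.27 to 7.40 CPM in normal control rats. In DEN model rats it was 35.4 (M13), 14.3 (M17) and 4.995 (M24) CPM. For PZH against DEN the markers that fell were 1 of 4 lymphocyte, 1 of 7 endothelial, 3 of 6 macrophage, 1 of 3 gut and 2 of 3 red cell precursor genes. Against normal control the markers called higher were 3 of 6 stellate and 1 of 7 endothelial genes, and none of the hepatocyte, macrophage, lymphocyte, gut or red cell precursor genes passed edgeR's test.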

How the data were processed

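Libraries of liver mRNA from 9 male Sprague-Dawley rats were run on an Illumina NovaSeq, with 3 rats per group and 1 library per rat. The submitters' processing notes name fastp, HISAT2 2.1.0, StringTie 1.3.3b and edgeR 3.30.3. The genome build is not given in the sources used here. The authors deposited whole-number read counts per gene and rat, not normalized. The authors also deposited FPKM, scaled for transcript length and library size. Their log2 fold change, P-value, Q-value and group mean columns hold the study's own comparisons and were not used.

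Counts were tested in R 4.3.3 with edgeR 4.0.16 (filterByExpr, TMM, glmQLFit, glmQLFTest) on the 6 rats of each comparison, over the whole table, with Benjamini-Hochberg adjustment over all genes tested. Depth sets a floor of 3 counts, 0.125 to 0.252 CPM, which covers counting error only. The code was tested on simulated data. Alternatives were DESeq2 1.42.0, limma 3.58.1 on log2(FPKM + 1) for genes with a mean of at least 0.1 FPKM, library totals, other filters, the study's thresholds, all groups in 1 fit, thinning of rat G27 and leaving out each rat. Exact permutation tests used log2(CPM + 1). Promoters came from RefSeq (GRCr8).

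Genes named were the 8 pumps, the canalicular pumps Abcc2, Abcb11 and Abcb4, the 3 highest and 3 lowest called other ABC genes, the 2 highest and 2 lowest called regulators together with Nfe2l2, Nr1i2, Nr1i3 and Ahr, all called targets and anchors, and the 3 genes most like each pump by Pearson r. Likeness used genes tested in all comparisons with a mean of at least 1 CPM and an assigned symbol. Abcb10, Lyve1, Hmox1 and Tiparp were named after their values were seen. The pumps and lists were chosen with earlier results of these data known.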

Additional observations from a re-analysis of the deposited data

How the results depend on the processing

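The 5 pump calls in DEN model against normal control held in every alternative tried, except that Abcc5 missed the study's thresholds. Library totals and limma added Abcb1b, so the count ran from 4 to 6 and was 5 without each rat in turn. In PZH against DEN model the 3 calls became 5 with DESeq2, 5 with library totals, 5 with limma, 0 at the study's thresholds and 1 to 4 when 1 rat was left out. In PZH against normal control the 3 calls became 1 at the study's thresholds and 1 to 4 when 1 rat was left out. The signs of Abcb1b and Abcg2 were not kept. With DEN, Abcb1b turned to 0.74 with library totals, 0.0011 with at least 10 counts in every rat, 0.72 with limma, 0.04 without M24 and 0.049 without N1 (-0.26 to 0.049 without 1 rat), and Abcg2 to 0.92, 0.077 and 0.67 in the first 3 of these, 0.30 without M17 and 0.57 without N3 (-0.36 to 0.57 without 1 rat). In PZH against DEN, Abcb1b turned to -0.49 with library totals and -0.48 with limma, and Abcg2 to -0.55 and -0.40, to -0.07 without G42 and to -0.18 without M17 (-0.18 to 0.53 without 1 rat). In PZH against normal, Abcb1b turned to -0.02, -0.03, -0.12 and -0.0035 without G28, G42, N12 and N3 (-0.12 to 0.16 without 1 rat), and Abcg2 to -0.05, -0.18, -0.06 and -0.24 without G27, G42, N1 and N12 (-0.24 to 0.74 without 1 rat). The cause was not tested. Over all genes, PZH against DEN had 2722 calls, 6252 with library totals, 5504 with limma, 347 at the study's thresholds, 271 without M13, 725 without M24, 1178 without G28 and 1221 without G42, and PZH against normal 696 calls, 1320 with DESeq2, 340 with at least 10 counts in every rat, 310 at the study's thresholds and 207 to 1326 without 1 rat. DEN against normal had 6529 calls and 1753 at the study's thresholds. Of the calls, 55.3%, 45.7% and 78.0% were higher in the 3 comparisons, and 89.5%, 8.89% and 90.0% with library totals. No paired analysis was possible because the groups share no rat number. The share of Abcb1b in all Abcb1 counts was not run, since Abcb1a was not analysed here.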
